A study of Mus musculus with 2 samples.

Results

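The genes described here are those of the hypoxia-inducible factor (HIF) pathway: *Hif1a*, *Epas1*, *Egln1*, *Egln3*, *Vegfa*, *Bnip3*, *Ndrg1*, *Adm*, *P4ha1* and *Pdk1*. They were chosen by name, as 10 of 27790 genes or transcripts with a probe, and were read by 18 of the 41164 probes. All of them had at least 1 probe, and 9 of the 10 were detected, which here means a signal well above background for the same line on both arrays; *Egln3* was not. Of the detected genes, *Egln1*, *Bnip3* and *Adm* were more than 2-fold higher in the B16F1-GFP-D line on each array, none was 2-fold lower, and *Vegfa* and *Ndrg1* were lower by less than 2-fold. Of all 12539 detected genes, 3.09% were 2-fold higher on both arrays and 1.94% were 2-fold lower.

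Total RNA of 2 cultured mouse melanoma lines was compared, both of them untreated and both carrying GFP. B16F1-GFP-M is the maternal line of GFP-labelled B16F1 melanoma cells. B16F1-GFP-D is the line labelled as derived dormant cells: it came from GFP-positive cells sorted from pooled organs of tumour-free control and immunised mice 1 year after they had been challenged with melanoma cells, and it grew from a single colony, so that it stands for 1 clone. The labels name no hypoxic treatment of either line. There were 2 two-colour Agilent arrays with exchanged dyes, on 1 slide: the maternal RNA carried Cy5 on array 1 and Cy3 on array 2, and the other RNA the opposite dye. No separate cultures are named, so the arrays counted as 1 replicate per line, and no test between the lines was possible; the standard deviations given below are between the arrays and hold dye effects but no variation between cultures.

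Cells sense oxygen through the stability of HIF alpha subunits. When oxygen is present, prolyl hydroxylases encoded by the Egln genes mark *Hif1a* and *Epas1* protein for ubiquitination by the von Hippel-Lindau ligase; when it is scarce, the subunits persist, pair with *Arnt* and activate genes of glycolysis, mitophagy, angiogenesis and matrix modification. Because the subunits are controlled largely as proteins, their mRNA levels do not report the activity of the pathway. In melanocytes and melanoma cells, *Hif1a* can also be transcribed under the control of the pigment cell factor *Mitf*.

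HIF dimers bind short DNA words, written ACGTG or GCGTG, known as the cores of hypoxia response elements. These words were searched on both strands in the 250 bases before each RefSeq start site (build GRCm38.p6), where the reverse strand reads CACGT or CACGC and where CACGTG is a match on both strands. The sequences of the 3 genes called higher and of *Vegfa*, a target that was lower, are shown because their contents can be set beside the measured ratios. Each is written 5′ to 3′ on the strand of its gene, in lower case with the matched letters in capitals. The *Bnip3* window is chr7:138909507-138909756 on the minus strand, that of *Egln1* is chr8:124949255-124949504 on the minus strand, that of *Adm* is chr7:110627407-110627656 on the plus strand, and that of *Vegfa* before its outermost start is chr17:46032378-46032627 on the minus strand.
Bnip3: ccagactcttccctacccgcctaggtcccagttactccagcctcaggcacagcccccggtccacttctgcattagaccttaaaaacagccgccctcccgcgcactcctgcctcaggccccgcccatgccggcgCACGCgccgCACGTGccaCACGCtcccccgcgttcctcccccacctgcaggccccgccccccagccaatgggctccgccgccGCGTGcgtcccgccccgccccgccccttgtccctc
Egln1: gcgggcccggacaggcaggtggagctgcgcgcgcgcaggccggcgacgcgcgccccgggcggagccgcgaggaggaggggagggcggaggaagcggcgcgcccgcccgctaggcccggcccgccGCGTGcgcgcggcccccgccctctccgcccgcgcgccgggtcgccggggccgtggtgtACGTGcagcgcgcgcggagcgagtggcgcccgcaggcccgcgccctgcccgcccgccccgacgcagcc
Adm: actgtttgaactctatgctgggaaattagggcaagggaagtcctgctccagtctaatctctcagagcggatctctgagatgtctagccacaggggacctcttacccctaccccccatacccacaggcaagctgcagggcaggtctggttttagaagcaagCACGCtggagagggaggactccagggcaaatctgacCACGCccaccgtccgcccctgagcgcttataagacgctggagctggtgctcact
Vegfa: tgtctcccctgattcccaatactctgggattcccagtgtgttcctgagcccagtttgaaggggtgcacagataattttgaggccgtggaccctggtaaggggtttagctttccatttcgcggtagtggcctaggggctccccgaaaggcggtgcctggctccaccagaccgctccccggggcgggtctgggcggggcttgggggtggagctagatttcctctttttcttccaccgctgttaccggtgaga

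The *Bnip3* window held 5 matches, the most among these genes, and 4 of them opened between 117 and 99 bases before the start, 2 of those being the strands of one CACGTG. The *Egln1* window held 2 matches, at 126 and 68 bases before the start, and the *Adm* window 2 at 90 and 54 bases. None was found before the outermost *Vegfa* start, while the window of a start 7214 bases further into that gene held 2. A window without a match says only that these letters are not in these 250 bases.

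*Pdk1* and *P4ha1*, whose ratios were smaller by their brightest probes, are shown by the stretch around the matches that lie upstream of the whole gene, with 10 bases on each side. The whole *P4ha1* window held 3 matches, more than that of *Egln1* or *Adm*, so the number of matches did not follow the size of the ratio. The *Pdk1* stretch is chr2:71873136-71873160, and those of *P4ha1* are chr10:59323123-59323147 and chr10:59323160-59323184, all on the plus strand.
Pdk1: gcctacatggGCGTGtctttaacca
P4ha1, 163 bases before the start: gggaacggtgGCGTGgcaggagctc
P4ha1, 126 bases before the start: ctgcgtcctcGCGTGggccagccta

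Of the 10 genes, 8 had an entry in the RefSeq promoter table, with 10 start sites; *Epas1* and *Ndrg1* had none. At least 1 match was present before 8 of these 10 starts, or 80.0%, against 12679 of all 32851 mouse starts, or 38.6%, and 59 of 84 starts, or 70.2%, of other HIF target genes. *Hif1a* had 3 matches, before a start that lies 6543 bases inside the gene, and *Egln3*, which was not detected on the arrays, had 1, at 229 bases before its start. Matches were thus present before genes that were higher, that changed little and that were not detected. Each word contains a CG pair, and the shares were not split by the CG content of the promoters. A match is a match of letters; binding was not measured.

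**Figure D1:**
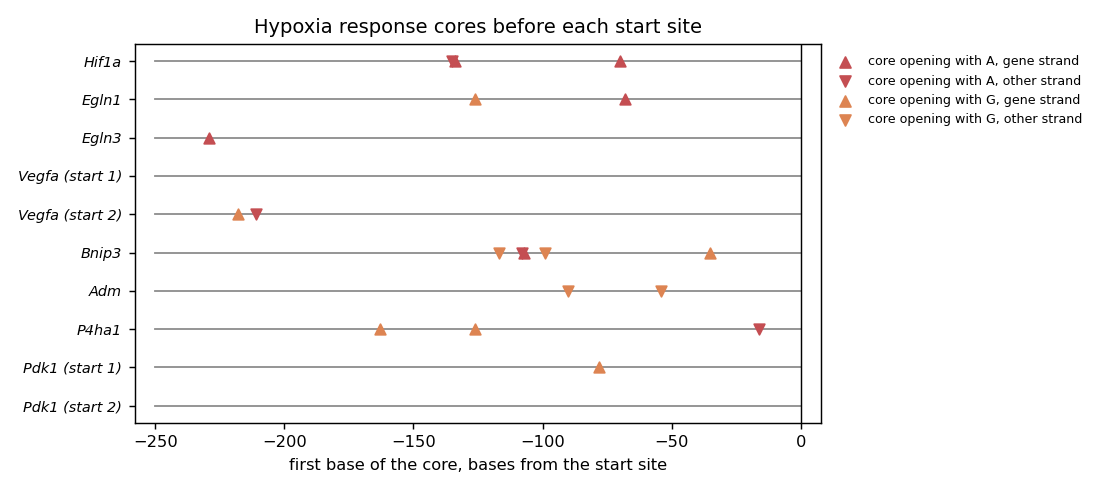
Position of each match to the cores of the hypoxia response element, in bases from the start site (horizontal axis), in the 250 bases before each RefSeq start of the 8 genes with an entry (rows). Triangles pointing up lie on the strand of the gene and those pointing down on the other strand; colour gives the letter with which the core opens. *Bnip3* has 5 matches, 4 of them close together, and the outermost *Vegfa* start has none.

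The measurements were fluorescence intensities. The share of spots well above background was 60.7% (B16F1-GFP-M) and 44.1% (B16F1-GFP-D) on array 1, and 45.0% and 56.1% on array 2, so that the Cy5 channel had the larger share each time. Levels below are normalised log2 intensities of a line on an array, after loess within and Aquantile scaling between arrays, and ratios are log2 of the B16F1-GFP-D level divided by that of B16F1-GFP-M. Levels of different probes cannot be compared with each other. A gene was read from its brightest probe, and it was called when its ratio was at least 1 in size, that is 2-fold, in the same direction on both arrays. By this rule, 387 of the 12539 detected genes were higher in B16F1-GFP-D and 243 were lower, which are the shares given above. Of the 9 detected hypoxia genes, 3 were called higher, or 33.3%, and 0 were called lower. Their median ratio was 0.65, with 0.57 on array 1 and 0.73 on array 2, where the median of all detected genes was -0.01. In RNA of whole cultures, a lower level in every cell and a smaller share of cells with the transcript cannot be told apart.

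**Figure D2:**
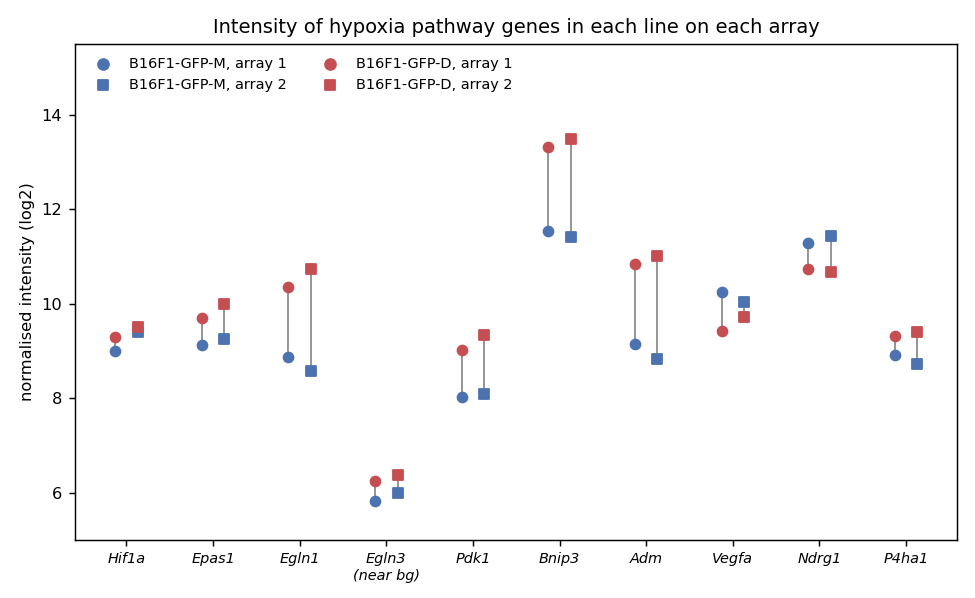
Normalised log2 intensity (vertical axis) of the brightest probe of each gene in B16F1-GFP-M (blue) and B16F1-GFP-D (red), with circles for array 1 and squares for array 2; a grey line joins the lines measured on the same array. For *Egln1*, *Bnip3* and *Adm* both red points lie well above both blue points, for *Vegfa* and *Ndrg1* they lie below, and *Egln3* was not above background (marked near bg).

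Of the HIF alpha subunits, *Hif1a* differed little between the lines. Its probe (chr12:75047269-75047329, mm9, as are all probe positions) gave levels of 8.99 in B16F1-GFP-M and 9.29 in B16F1-GFP-D on array 1, and of 9.41 and 9.51 on array 2. Within each array the B16F1-GFP-D level was the higher one, while the B16F1-GFP-M level of array 2 was above the B16F1-GFP-D level of array 1. The ratios were 0.30 and 0.10, with a mean of 0.20 ± 0.14 (SD of 2 arrays) or 1.15-fold. *Epas1*, which encodes the alpha subunit of HIF-2, was somewhat higher in B16F1-GFP-D. Its brightest probe (chr17:87232615-87232674) rose from 9.13 to 9.70 on array 1 and from 9.26 to 9.99 on array 2, without overlap of the lines. The mean ratio was 0.65 ± 0.11, or 1.57-fold, which is under the 2-fold rule. The other 2 *Epas1* probes were not detected and gave 0.00 and 0.09, so that the *Epas1* value rests on a single probe.

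The other subunits showed no 2-fold difference. *Arnt*, the partner of both alpha subunits, had ratios of -0.11 and -0.32 on the 2 arrays. *Hif3a* and *Arnt2* were not detected. In this list of 5 subunits, 3 genes were detected, 0 were called and the median was 0.20.

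*Egln1*, the main prolyl hydroxylase that marks HIF alpha subunits for destruction and itself a HIF target, was higher in B16F1-GFP-D. Its brightest probe (chr8:127433241-127433300) gave 8.87 in B16F1-GFP-M and 10.36 in B16F1-GFP-D on array 1, and 8.57 and 10.74 on array 2. The lowest B16F1-GFP-D level was above the highest B16F1-GFP-M level. The ratios of 1.49 and 2.17 had a mean of 1.83 ± 0.49, or 3.56-fold, and 48 of the 12539 detected genes had a larger mean ratio. The second *Egln1* probe was dimmer and gave a smaller difference in the same direction, with 0.79 and 1.09 and a mean of 0.94 or 1.92-fold.

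*Egln3*, a hydroxylase gene induced by hypoxia in many cell types, was not well above background in either line on either array. The ratio of its signal to the local background was 1.13 to 2.49, and no fold is given. *Egln2*, the remaining prolyl hydroxylase, had ratios of 0.18 and 0.45. *Hif1an*, the asparaginyl hydroxylase that blocks coactivator binding, had 0.23 and -0.04, with opposite signs on the arrays, and *Vhl*, the substrate receptor of the ligase, had -0.28 and -0.08. Of the 16 genes listed for hydroxylation and degradation, 13 were detected, *Egln1* was the 1 called higher, 0 were called lower, and the median was 0.10. The largest other ratios in that list were 0.41 for *Rbx1*, a ring finger subunit of the ligase, and -0.34 for *Cited2*, which competes with HIF for its coactivators.

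Among the 7 coactivators and stabilisers, all detected, 1 was called higher: *Hsp90aa1*, a chaperone that binds the alpha subunit, with 1.31 on each array. The next largest ratios were -0.45 for the coactivator *Crebbp*, -0.40 for *Ncoa1* and 0.36 for the chaperone *Hsp90ab1*. The median was 0.06.

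*Bnip3*, a mitochondrial outer membrane protein that triggers mitophagy, was higher in B16F1-GFP-D. Its probe (chr7:146083077-146083136) gave 11.53 in B16F1-GFP-M and 13.31 in B16F1-GFP-D on array 1, and 11.42 and 13.49 on array 2. The lines were far apart on both arrays. The ratios of 1.77 and 2.06 had a mean of 1.92 ± 0.21, or 3.78-fold, with 36 detected genes above it. This is the gene with 5 core matches in the sequence shown above.

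*Pdk1*, a kinase that keeps pyruvate out of the mitochondrial citric acid cycle, was higher on both arrays but missed the rule by little. Its brightest probe (chr2:71741820-71741879) rose from 8.02 to 9.02 on array 1 and from 8.09 to 9.33 on array 2, with ratios of 0.99 and 1.24. The array 1 value lies just under the threshold of 1, and the mean was 1.11 ± 0.17, or 2.17-fold. The second *Pdk1* probe (chr2:71739688-71739747) gave 1.75 and 1.83, with a mean of 1.79 or 3.46-fold, so that the probes differed in size and not in direction.

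The list of 12 mitophagy and mitochondrial targets that holds both genes had 10 detected members, of which 3 were called higher and 1 lower, with a median of 0.77. Besides *Bnip3*, the hypoxia-induced mitochondrial genes *Fam162a* and *Higd1a* were called, with 1.40 and 1.32 for *Fam162a* and 1.59 and 1.15 for *Higd1a*. The other detected *Higd1a* probe gave 0.96, and the other *Fam162a* probe was not detected. *Lonp1*, the protease of the mitochondrial matrix, was called lower with -1.05 and -1.42. *Pdk3*, with 0.79, and the adenylate kinase *Ak4*, with 0.75, were higher on both arrays but under 2-fold, as was *Bnip3l*, the paralogue of *Bnip3*, with 0.54. *Ak4* was dim and well above background on both arrays only in B16F1-GFP-D, so it counted as detected through the line where it was higher.

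*Adm*, which encodes the vasodilator peptide adrenomedullin, was higher in B16F1-GFP-D, with a ratio much like that of *Bnip3*. Its probe (chr7:117773088-117773147) gave 9.14 in B16F1-GFP-M and 10.84 in B16F1-GFP-D on array 1, and 8.83 and 11.00 on array 2. Both B16F1-GFP-D levels lay above both B16F1-GFP-M levels, and the ratios of 1.70 and 2.17 had a mean of 1.94 ± 0.33, or 3.83-fold, with 33 detected genes above it.

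*Vegfa*, the vascular endothelial growth factor and a classical HIF target, went the other way. Its brightest probe (chr17:46162376-46162435) fell from 10.25 to 9.43 on array 1 and from 10.04 to 9.71 on array 2. The lines did not overlap, but the ratio was further from 0 on array 1, with -0.82, than on array 2, with -0.32. The mean was -0.57 ± 0.35, or 1.49-fold higher in B16F1-GFP-M, and 1196 detected genes had a lower ratio.

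The other 3 *Vegfa* probes were detected and had the same sign on both arrays. Their means were -0.45, -0.38 and -0.07, the last from the dimmest. The probe with -0.38 was printed at 10 spots per array, which gives a measure of spot error. On array 1 these spots ranged from -0.37 to -0.27 with a median of -0.34 and an SD of 0.04, and on array 2 from -0.48 to -0.33 with a median of -0.42 and an SD of 0.048. Every one of the replicate spots was thus below 0, and the spread between spots was small against the difference, while it says nothing about the spread between cultures.

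Of the 16 secreted and vascular targets, 7 were detected, 1 was called higher (*Adm*), 0 were called lower, and the median was 0.35. Over these 7 genes the median was 0.42 on array 1 and 0.29 on array 2. It was 0.07 when detection was also judged on array 1 alone, which lets in more genes, and 0.04 with no filter on dim probes. The placental growth factor *Pgf*, a relative of *Vegfa*, had 0.57 and 0.49, and the matrix protein gene *Ccn2* had 0.50 and 0.36. The remaining 9 genes were not detected, among them *Angptl4* and *Epo*.

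*Ndrg1*, a gene induced by hypoxia and by differentiation, was lower in B16F1-GFP-D, as *Vegfa* was. Its probe (chr15:66761057-66761116) fell from 11.28 to 10.73 on array 1 and from 11.43 to 10.68 on array 2, so that the lines did not overlap. The mean ratio was -0.65 ± 0.15, or 1.57-fold higher in B16F1-GFP-M, with 924 detected genes below it. *P4ha1*, the catalytic subunit of collagen prolyl hydroxylase, was slightly higher in B16F1-GFP-D. Its brightest probe (chr10:58834272-58834331) rose from 8.91 to 9.31 on array 1 and from 8.72 to 9.40 on array 2, with a mean of 0.54 ± 0.20, or 1.46-fold. Its second probe gave 0.41 and 0.38.

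**Figure D3:**
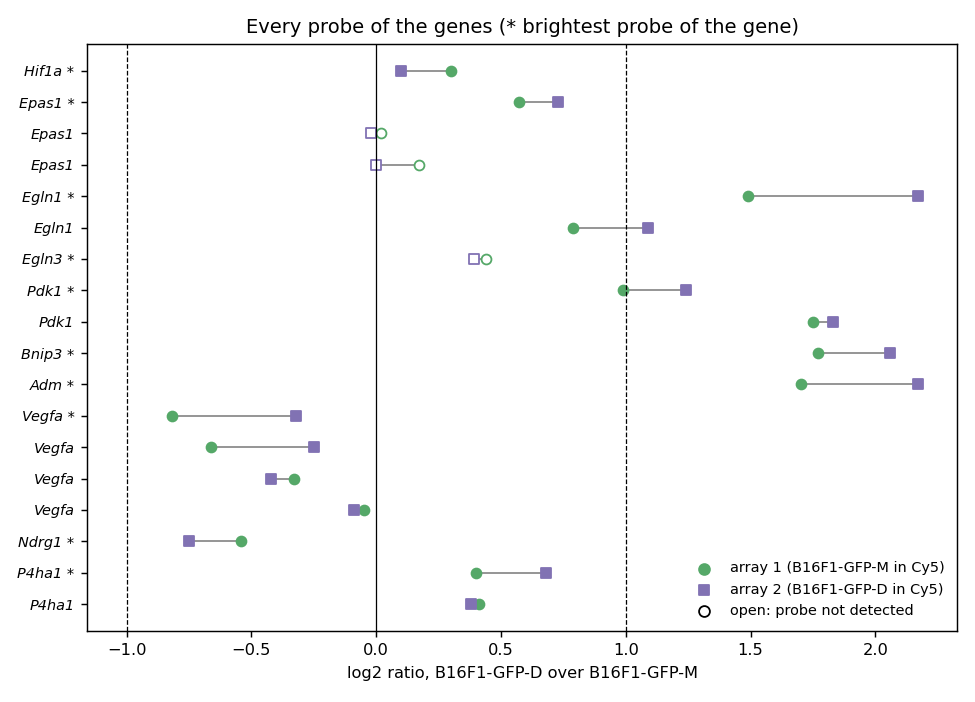
Log2 ratio, B16F1-GFP-D to B16F1-GFP-M (horizontal axis) for each of the 18 probes of the 10 genes (rows, an asterisk marking the brightest probe), with circles for array 1 and squares for array 2. Open symbols are probes that were not detected and dashed lines mark 2-fold; the detected probes of a gene share their sign, while those of *Egln1*, *Pdk1* and *Vegfa* differ in size.

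In order of their mean ratios the detected genes were *Adm*, *Bnip3*, *Egln1*, *Pdk1*, *Epas1*, *P4ha1*, *Hif1a*, *Vegfa* and *Ndrg1*. The array values of *Adm*, *Bnip3* and *Egln1* overlapped from neighbour to neighbour, so these genes have no order among themselves. By their brightest probes, *Egln1* and *Pdk1* did not overlap, with a gap of 0.72 between their means, nor did *Pdk1* and *Epas1*. The order of *Egln1* and *Pdk1* depended on the probe, however. Their second probes had means of 0.94 for *Egln1* and 1.79 for *Pdk1*, and the median over probes gave 1.38 and 1.45. *Epas1* overlapped *P4ha1*, and *Vegfa* overlapped *Ndrg1*. *Hif1a* stood apart from *P4ha1* above it and from *Vegfa* below it. No sign differed between the arrays in any of the 9 genes, 7 being higher and 2 lower on both. Of all 12539 detected genes, 5142 were higher and 5363 lower on both, so most genes of the arrays also kept their sign.

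Of the 7 collagen modification genes, 5 were detected and all 5 were higher on both arrays, against 5142 of all 12539 detected genes. Their median was 0.65, and 1 was called: *P4ha2*, the other catalytic subunit of the collagen hydroxylase, with 1.79 and 1.92. A second *P4ha2* probe was not detected, and with the median over probes 0 genes of the list were called. The lysyl hydroxylase *Plod2* had 0.78, and *P4hb*, the shared partner of both catalytic subunits, had 0.65.

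Among the HIF target lists, the one for glucose uptake and glycolysis held the most called genes. Of 22 listed targets, 21 were detected, 10 were called higher, or 47.6%, and 0 lower, with a median of 1.03. The largest was *Slc16a3*, the lactate exporter, with 3.30 and 3.54, which is also the highest mean ratio of all detected genes. The glucose transporter *Slc2a1* had 1.42 and 1.99. Of the hexokinases, *Hk1* had 1.63 and 1.82 and *Hk2* a mean of 1.42.

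Further down the pathway, the phosphofructokinases *Pfkp* and *Pfkl* had mean ratios of 2.39 and 1.46, and *Tpi1*, *Pgam1* and *Eno1*, which act on the carbon fragments that follow, had 1.63, 1.85 and 1.31. *Ldha*, which makes lactate, had 1.55 and 2.22. Other detected probes were smaller for some of these genes, with 0.63 for *Tpi1*, 0.74 for *Pfkp* and 0.61 for *Hk1*. *Pgk1*, with 0.84 and 1.23, was just under the rule, and *Gpi1* and *Pkm* each had a mean of 0.89. Of the detected genes of this list, 18 were higher and 2 lower on both arrays. The lower ones were *Pfkfb3*, a hypoxia-induced regulator of the same step as the phosphofructokinases, with -0.65 and -0.88, and the glucose transporter *Slc2a3*, with -0.73 and -0.43. *Aldoa* had opposite signs on the arrays, with -0.19 and 1.08.

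Of 4 genes for pH regulation, 3 were detected and 1 was called: *Car9*, a carbonic anhydrase used as a marker of tumour hypoxia, with 1.13 and 1.21, at levels between 7.24 and 7.42 in B16F1-GFP-M and 8.37 and 8.63 in B16F1-GFP-D. The list's median was 0.24, or 0.09 with no filter on dim probes.

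The 27 transcription and stress targets were divided. Of these, 24 were detected, 2 were called higher and 3 lower, and the median was 0.29. *Egln1* and the circadian repressor *Bhlhe40*, with 1.31 and 1.21, were called higher. *Ddit4*, an inhibitor of mTOR signalling, was lower with -1.66 and -1.85. The lipoprotein receptor gene *Vldlr* was lower with -1.74 and -1.72, and the haem oxygenase *Hmox1* with -1.65 and -1.55. The second, dimmer probes of *Vldlr* and *Hmox1* gave -0.65 and -0.41. *Jmjd6*, with 1.01, and *Maff*, with 0.99, were each under the threshold on 1 array, and a second, dimmer *Jmjd6* probe went the other way with -0.36.

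**Figure D4:**
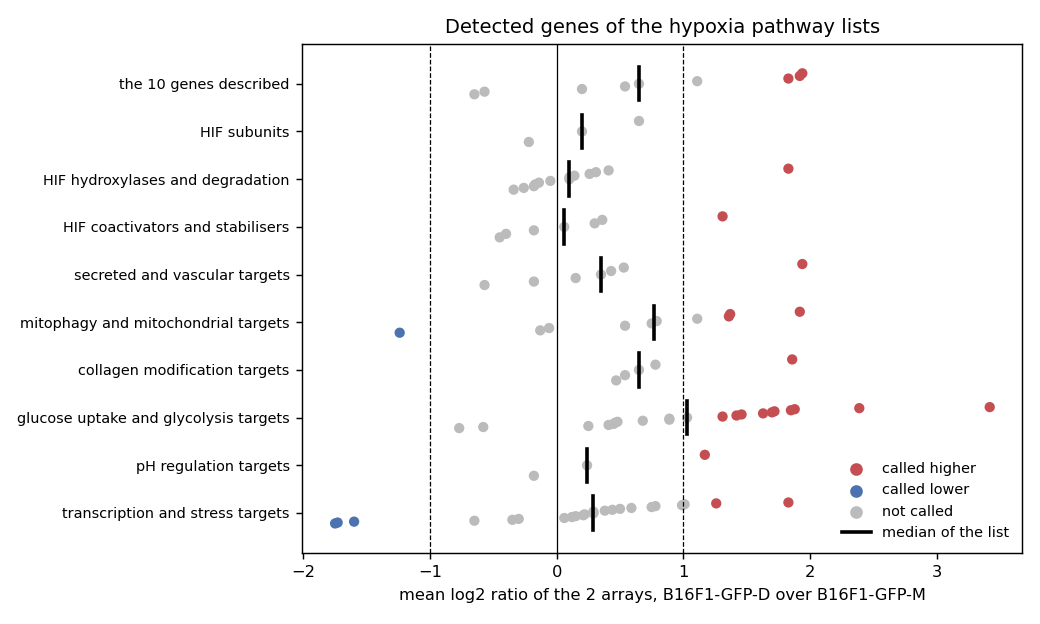
Mean log2 ratio (B16F1-GFP-D to B16F1-GFP-M, 2 arrays) (horizontal axis) for every detected gene of each list (rows); some genes stand in more than 1 list. Red points were called higher, blue points lower and grey points neither, a black bar is the median of the list and dashed lines mark 2-fold; the median was 1.03 for glucose uptake and glycolysis and 0.20 for the HIF subunits.

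Over all other genes of these lists, 103 had a probe and 83 were detected. Of the detected genes, 16 were called higher, or 19.3%, and 4 lower, or 4.82%, with a median of 0.36. Among these, the 63 detected genes of the target lists had 15 called higher, or 23.8%, and 4 lower, or 6.35%, with a median of 0.48. These shares are above those of all detected genes, and the lists were written with earlier results of these data in view. The 15 genes of a published tumour hypoxia signature, of which 4 are also among the 10 genes described, were all detected; 8 were called higher, 0 lower, and the median was 1.31. *Cdkn3*, a cell cycle phosphatase, and the tubulin *Tubb6* were the called genes of the signature in no other list, with 1.84 and 1.66. A second detected *Cdkn3* probe gave 1.67, while a second detected *Tubb6* probe, much dimmer than the first, gave -0.10. With the median over the probes of each gene the median of the signature was 0.78 and 7 genes were called, and with median centring 0 were called.

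Several of the called genes also answer to signals other than hypoxia. Values for a further stress pathway were mostly lower in B16F1-GFP-D, while most of the called hypoxia genes were higher. Of 20 targets of the amino acid and endoplasmic reticulum stress factor ATF4, 19 were detected, 0 were called higher and 14 lower, with a median of -1.53. The detected genes ranged from -3.56 to 0.19. Those furthest below 0 were *Nupr1*, with -3.56, *Atf5*, with -3.37, and *Trib3*, with -3.24, while *Phgdh*, *Asns* and *Slc3a2*, whose spots were the brightest of the list, had -1.35, -1.53 and -1.12. *Ddit4* and *Vldlr* stand in both lists. *Vegfa* and *Lonp1*, which were also lower, are known as responsive to this pathway. The part of the stress pathway in the ratios of the hypoxia genes was not tested.

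Both lines expressed the pigment cell genes that their label implies. All 10 melanocyte markers were detected, 0 were called, and their median was -0.14, with -0.34 on array 1 and 0.03 on array 2. *Dct*, *Mlana* and *Pmel*, named because their spots were the brightest of the list, were among them, and *Mitf* itself had -0.95 and -0.89. The summed intensity of the list was 455000 and 407000 in B16F1-GFP-M and 385000 and 442000 in B16F1-GFP-D. Of 10 markers each, 3 were detected for endothelial cells, 4 for fibroblasts and 4 for leukocytes, with 0 called and medians of -0.01, 0.14 and -0.04. The highest mean ratio of each list was that of the endothelial gene *Vwf*, the matrix gene *Fbln1* and the macrophage gene *Cd68*. They had 0.74 and 0.70, 0.67 and 0.56, and 0.51 and 0.36, all of them higher in B16F1-GFP-D by less than 2-fold. *Vwf* and *Cd68* were dim and well above background on both arrays only in B16F1-GFP-D. They thus counted as detected through the line where they were higher. A second detected *Vwf* probe gave a mean of 0.20. Other detected markers went the other way. Ratios of both arrays were above 0 for 1 endothelial, 3 fibroblast and 1 leukocyte marker, and below 0 for 1, 1 and 2. The lowest mean ratios of these lists were -0.07, -0.33 and -0.40. Of the defining genes, *Cdh5* and *Dcn* were well above background in no line on any array, while *Pecam1* and *Ptprc* were so in B16F1-GFP-M on 1 array and *Col1a1* in B16F1-GFP-D on 1 array. The part of other cell types in the ratios was not tested. The summed intensities of all 10 markers, which hold the offset added to each dim probe, were 3650 to 4180 in B16F1-GFP-M and 3550 to 4090 in B16F1-GFP-D for endothelial cells, 1790 to 1810 and 2280 to 2400 for fibroblasts, and 988 to 1030 and 952 to 979 for leukocytes.

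The values of the 9 detected genes were recomputed under 7 other settings that can change them: other background corrections, the scanner software's ratio, median centring, the median over a gene's probes and each array alone. The sign of each mean ratio was the same in all of them, but with median centring *Epas1*, *P4ha1*, *Hif1a*, *Vegfa* and *Ndrg1* had opposite signs on the 2 arrays. *Adm* lay between 1.70 and 2.17, *Bnip3* between 1.77 and 2.15 and *Egln1* between 1.38 and 2.17. *Pdk1* lay between 0.99 and 1.45 and was called in 5 of the 7, though not in the setting used here. *Vegfa* lay between -0.82 and -0.32 and *Ndrg1* between -0.75 and -0.49, and neither was called in any. *Epas1* had the widest relative range, from 0.09 with the median of its probes, of which only the brightest was detected, to 0.74.

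**Figure D5:**
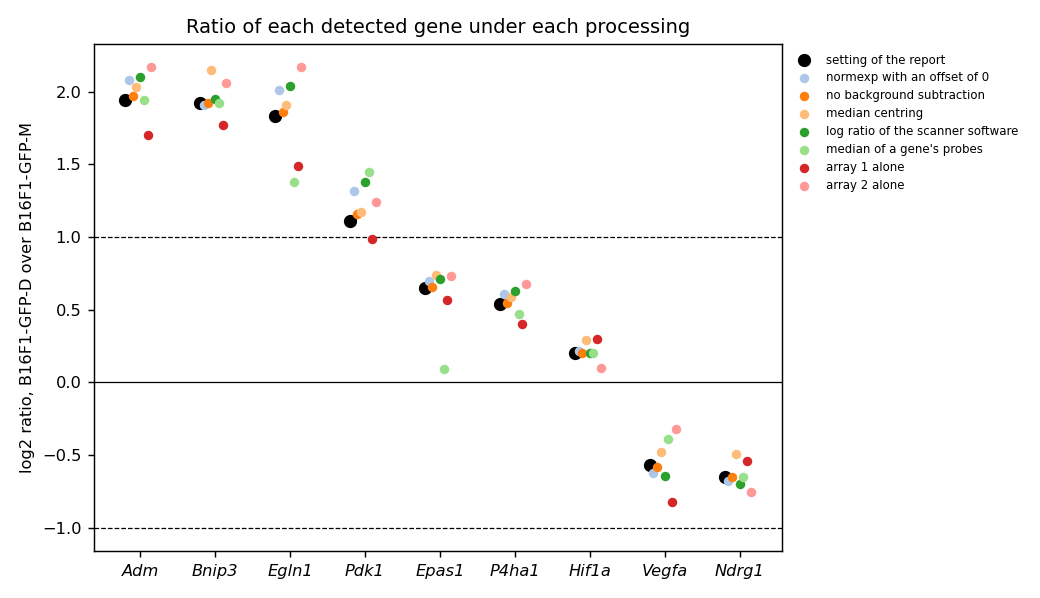
Log2 ratio, B16F1-GFP-D to B16F1-GFP-M (vertical axis) of each detected gene under the processing of the report (black) and under 7 alternatives that can change it (coloured points), with dashed lines at 2-fold. The points of each gene keep to one side of 0, and those of *Pdk1* lie on both sides of the upper dashed line, from 0.99 to 1.45.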

How the data were processed

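RNA of the 2 lines was hybridised to 2 Agilent arrays with exchanged dyes. The authors' scanner software, Agilent Feature Extraction 10.7.3.1, gave the deposited intensities of spots and local background, not normalized. The deposited log10 ratios of Cy5 over Cy3, after the software's own background subtraction and dye normalization, and the deposited series value table with the same log10 ratios, within 0.005, served as alternatives. In R 4.3.3 with limma 3.58.1, intensities were corrected by normexp with an offset of 50, which draws ratios of dim spots towards 0, and normalized by loess within arrays; control and outlier spots (143 and 176) were left out. Ratios were turned to log2, with B16F1-GFP-D as numerator, and spots of a probe averaged. Of the probes, 27184 were named through RefSeq accessions and 13980 by the array file; positions are those of the file, on mm9, whose exons and UTRs were not looked up.

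A probe was detected when more than 50% of its spots were well above background in the same line on both arrays. Lists were described by counts and medians, since 1 replicate per line allows no test. The genes and lists were chosen with earlier results of these data known. Named were all 10 genes, every called gene of the pathway lists and the HIF partners. At most 3 further genes per pathway list with large ratios and the brightest or defining genes of the marker and ATF4 lists were also named. *Bnip3l*, *Pfkfb3*, *Mitf*, *Nupr1*, *Atf5*, *Trib3*, *Cd68*, *Fbln1*, *Vwf*, *Cdkn3*, *Tubb6* and the undetected genes were added after their values were seen. *Slc2a3* and *Aldoa* were named outside this rule as well, for a lower ratio and for opposite signs. The procedure was tested on simulated arrays. Promoter sequences are from RefSeq on GRCm38.p6, used apart from the probe positions. Tables used pandas 2.3.3 and numpy 2.4.6 in Python 3.11.15, and figures matplotlib 3.10.9.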

Additional observations from a re-analysis of the deposited data

How the results depend on the processing

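The sign of the mean ratio of each of the 9 detected hypoxia genes held under the 7 alternatives that can change it, no gene was called lower, and 3 genes were called higher in the setting of the report, 2 at 3-fold and 3 or 4 under the others except median centring. With median centring in place of loess, 0 of them were called, since the medians of all detected genes then lay at -0.86 on array 1 and 1.02 on array 2: *Adm* had 0.69 and 3.37, *Bnip3* 0.72 and 3.58 *Egln1* 0.49 and 3.33, *Pdk1* 0.11 and 2.22, *Epas1* -0.41 and 1.88, *P4ha1* -0.55 and 1.74, *Hif1a* -0.66 and 1.23, *Vegfa* -1.83 and 0.87 and *Ndrg1* -1.58 and 0.60. The counts over all genes also fell, to 64 called, 45 higher and 19 lower, with 2 higher and 0 lower among the other pathway genes, whose median was 0.48. An offset of 0 gave 1077 called genes, 635 higher and 442 lower, the scanner software's ratio 1355, 758 and 597, and the values of the series matrix 1351, 757 and 594, both with a median of 0.39 for the other pathway genes. A 1.5-fold threshold gave 1980, 1100 and 880, with 26 of the other pathway genes higher, and a 3-fold threshold gave 123, 74 and 49, with 6 higher and 2 lower. With no filter on dim probes the median of the other pathway genes was 0.24, and taking the median over the probes of each gene it was 0.31 and that of the 9 genes 0.47. With 1 array alone it ranged from 0.24 to 0.37, and that of the 9 genes from 0.57 to 0.73. Some medians near 0 changed sign. That of all detected genes, -0.01 in the setting of the report, was 0.07 with median centring and 0.03 with array 2 alone. That of the coactivators went from 0.06 to -0.05 with the median over probes. That of the HIF subunits went from 0.20 to -0.01 with array 2 alone. With array 1 alone, the medians of all detected genes and of the subunits kept their sign, at -0.04 and 0.17. More genes were detected with 1 array alone. Over the genes detected in the setting of the report, the subunit median was 0.30 on array 1 and 0.10 on array 2. That of the other pathway genes was 0.36 and 0.39. The lower medians of these lists with 1 array alone thus belong to a wider set of detected genes. Besides median centring, the cause of the remaining changes was not tested. Aquantile scaling and both detection filters cannot change a detected gene's ratio, and the series matrix repeats the scanner's; of the 63 values under the other alternatives, 6 moved by more than the spread between arrays. No paired analysis was possible because there is 1 replicate of each line; both arrays share 1 slide. Many spots lay near background, with a median brightness of 1.66 to 2.60 times the local background, which limits what can be said of *Egln3* and of the dimmer probes.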
